A study of Mus musculus with 4 samples.

Results

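The transcription factors that direct effector differentiation of CD8+ T cells were examined in single-cell transcriptomes of tumour-infiltrating cells. They were the genes Tbx21, Eomes, Id2, Zeb2, Zbtb32, Batf, Irf4, Irf8, Runx3 and Bhlhe40, chosen by name, which makes 10 of the 31253 genes in each deposited matrix. Each of them was found by its symbol in all 4 libraries. The CD45+ CD8+ cells had been sorted from tumours of MB49, a mouse bladder carcinoma line, and each library pooled the cells of 3 mice. WT came from wild-type mice and KO from mice with Bfar deleted in CD8+ T cells, both of strain C57BL/6Slac, aged 10 to 12 weeks and with subcutaneous tumours. The labels do not name the promoter that drove the deletion. Young and Aged came from Rag1-/- hosts aged 8 to 10 weeks, which lack mature T and B cells of their own. Each host was injected by vein, on the day of tumour inoculation, with CD8+ T cells from 8-week-old mice for Young and from 18-month-old mice for Aged. The host strain is labelled B6.129S7-Rag1tm0Mom/J for Young and B6.129S7-Rag1tm1Mom/J for Aged. Each group held 1 library, so the intervals given are 95% counting intervals, none of them covers variation between mice, and no significance test was possible. Ratios are of KO over WT and of Aged over Young. No ratio was formed between the pairs, whose libraries were made with different kits.

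T-bet (encoded by Tbx21) and eomesodermin (Eomes) are related T-box factors that drive cytotoxic and cytokine genes and share out effector and memory fates. Id2 holds back E-proteins, Zeb2 is a zinc-finger repressor found in terminal effector cells, and Runx3 maintains the CD8 lineage and its cytotoxic programme. BATF pairs with Jun proteins and with IRF4 or IRF8 on composite sites downstream of the T cell receptor. Zbtb32 is a repressor found in activated lymphocytes, and Bhlhe40 is a basic helix-loop-helix repressor with roles in metabolism and cytokine production.

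Cells were counted if they had at least 1000 unique molecular identifiers (UMIs), 500 genes, at most 10% mitochondrial UMIs, and at least 1 UMI of a CD3 and of a CD8 gene. The cells that met this numbered 8966 in WT, 8153 in KO, 9803 in Young and 8252 in Aged, and their median totals were 6341, 6870, 4510 and 5768 UMIs. Cd3e was seen in 92.4 to 96.8% and Cd8a in 90.8 to 94.6% of them, shares that the rule itself helps to set. Of markers that the rule did not use, Cd4 stood at 0.131 CPM in WT, 0.503 in KO, 0.674 in Young and 7.14 in Aged. A UMI of Cd4 was seen in 0.255% of Young and 2.90% of Aged cells. The part of these cells in the ratios of Aged over Young was not tested. The gamma-delta T cell gene Trdc stood at 13.3 CPM in WT, 2.24 in KO, 0.510 in Young and 0.169 in Aged. The WT and KO libraries shared 20 cell barcodes and the Young and Aged libraries 145. Bfar, the deleted gene, stood at 22.4 CPM (UMIs per 1000000 UMIs of these cells) in KO and 32.1 CPM in WT. Since a tag outside the deleted part would still be read, this level is no check of the label. Markers of other cell types were present: summed over 5 dendritic cell markers the level was 41.1 CPM in WT, 42.7 in KO, 742 in Young and 170.0 in Aged, where 1 of the 5 was at 0. Tumour or epithelial markers stood at 346 CPM in WT, 114 in KO, 192 in Young and 48.8 in Aged, and fibroblast markers at 222, 33.7, 27.7 and 10.8 CPM. Mast cell or basophil markers stood at 288 CPM in WT and 101 in KO, and gamma-delta T cell markers at 25.6 and 5.89 CPM. At least 2 UMIs of the markers of any 1 of 12 other cell types were found in 862 WT, 352 KO, 861 Young and 430 Aged cells.

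All 10 gene identifiers of the files matched the mm10 annotation (GENCODE M21), where each gene is protein-coding. Tbx21 lies on chromosome 11 from 97098071 to 97115331 (minus strand) and Eomes on chromosome 9 from 118478212 to 118486132 (plus strand). Id2 lies on chromosome 12 from 25093799 to 25097140 (minus), Zeb2 on chromosome 2 from 44983632 to 45117395 (minus) and Runx3 on chromosome 4 from 135120652 to 135177990 (plus). Zbtb32 lies on chromosome 7 from 30589681 to 30598909 (minus), Batf on chromosome 12 from 85686669 to 85709087 (plus) and Bhlhe40 on chromosome 6 from 108660629 to 108666925 (plus). Irf4 lies on chromosome 13 from 30749226 to 30766976 (plus) and Irf8 on chromosome 8 from 120736358 to 120756694 (plus).

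For 9 of the 10 genes a promoter was matched by symbol in RefSeq (GRCm38.p6). The 250 bases before the start are shown for Eomes, the factor most tied to Gzmk-positive cells below, and for Zbtb32 and Irf8. The latter were found together in single cells and moved together in some of the gates. Capitals mark motif matches.
Eomes, chr9:118477939-118478188, plus strand: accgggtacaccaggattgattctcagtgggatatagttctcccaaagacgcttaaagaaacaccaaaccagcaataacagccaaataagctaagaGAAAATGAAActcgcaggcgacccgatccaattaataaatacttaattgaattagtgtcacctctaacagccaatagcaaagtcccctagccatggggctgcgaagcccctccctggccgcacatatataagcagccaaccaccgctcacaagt
Zbtb32, chr7:30598910-30599159, minus strand: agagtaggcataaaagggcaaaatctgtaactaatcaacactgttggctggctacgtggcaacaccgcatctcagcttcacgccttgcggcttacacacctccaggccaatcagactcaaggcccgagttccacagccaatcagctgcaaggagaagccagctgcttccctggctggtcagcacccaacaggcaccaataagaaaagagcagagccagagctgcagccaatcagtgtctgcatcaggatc
Irf8, chr8:120736108-120736357, plus strand: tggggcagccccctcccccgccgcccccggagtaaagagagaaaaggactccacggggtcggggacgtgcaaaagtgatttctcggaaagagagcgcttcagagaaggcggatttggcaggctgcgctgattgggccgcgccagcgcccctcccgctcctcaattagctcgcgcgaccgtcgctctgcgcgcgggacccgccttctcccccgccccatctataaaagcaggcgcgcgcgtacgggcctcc
Searched on both strands were a T-box site (GGTGTGA, in 3.33% of 32817 promoter windows of this length), a RUNX site (TGTGGT, 14.0%), an AP-1 site (TGANTCA, 6.75%), an interferon regulatory factor site (2.97%), the E-box CACGTG (6.02%) and the ZEB site CAGGTG (17.2%). The Eomes window held 1 match, to the interferon regulatory factor site, and the shown windows of Zbtb32 and Irf8 held none. No window of the 9 genes held the T-box site, which says only that these letters are not in those 250 bases. In Runx3, the RUNX site was matched at a pair of positions in 1 window, read as ACCACA on the other strand. Batf also held a pair of RUNX matches, and a window of Zbtb32 not shown here held 1. The ZEB site was matched in Tbx21, in Runx3 and in a window of Irf8 not shown here. Zeb2 has 4 annotated starts, and the window of 1 of them held 2 AP-1 matches.

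The factors differed widely in how they were counted, and levels below are compared within each pair of libraries and not between genes. Tbx21 stood at 28.2 CPM in WT (27.0 to 29.4), 27.0 in KO (25.8 to 28.2), 77.6 in Young (75.4 to 79.8) and 104.8 in Aged (102.3 to 107.3). Eomes stood at 38.8 CPM in WT (37.5 to 40.3), 34.8 in KO (33.4 to 36.2), 35.9 in Young (34.4 to 37.5) and 63.9 in Aged (62.0 to 65.9). Both T-box factors were higher in Aged than in Young, with intervals that did not overlap. Between WT and KO the intervals overlapped for Tbx21, while for Eomes KO lay below WT without overlap.

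**Figure D1:**
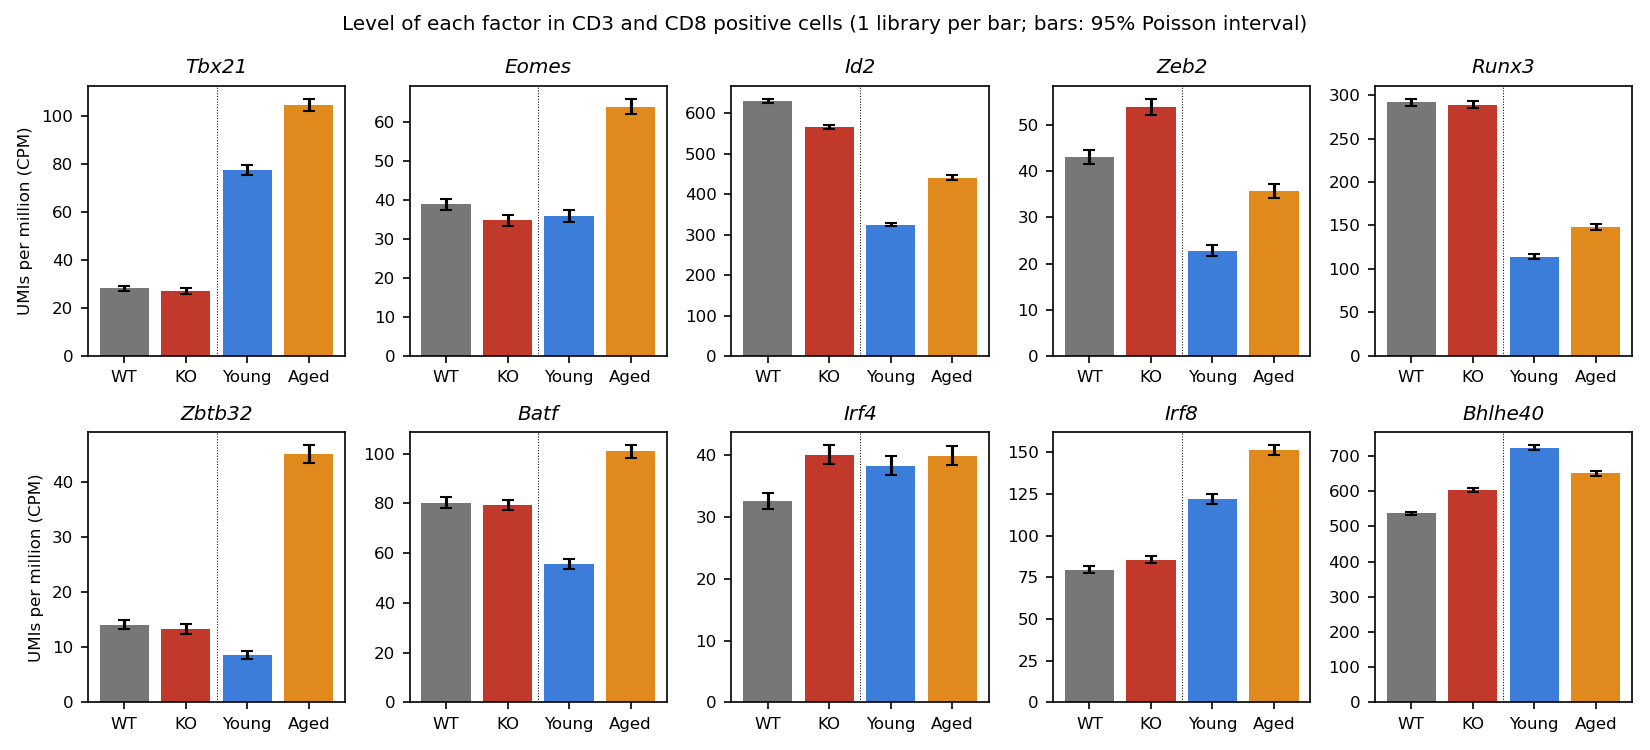
Level of each factor, in CPM (vertical axis, separate scale per gene), in CD3 and CD8 positive cells of the 4 libraries; bars stand for 1 library each, whiskers for 95% Poisson intervals, and the dotted line parts the pairs. Zbtb32 stands at 8.54 CPM in Young and 45 CPM in Aged, while WT and KO bars are of similar height for each gene.

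Id2 was found at 630.5 CPM in WT, 566.4 in KO, 324.9 in Young and 441.5 in Aged. Zeb2 was found at 43.0 CPM in WT, 53.9 in KO, 22.8 in Young and 35.7 in Aged. Runx3 was found at 291.7 CPM in WT, 288.8 in KO, 114.2 in Young and 148.1 in Aged. Of these regulators of lineage and terminal differentiation, Id2 was lower and Zeb2 higher in KO than in WT beyond counting error, and all 3 were higher in Aged than in Young.

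Zbtb32 was counted at 14.1 CPM in WT, 13.3 in KO, 8.54 in Young and 45 in Aged, with Aged well above Young. Batf was counted at 80.3 CPM in WT, 79.4 in KO, 55.6 in Young and 100.8 in Aged. Irf4, which is induced by T cell receptor signal strength, was counted at 32.5 CPM in WT, 40.0 in KO, 38.3 in Young and 39.9 in Aged. Irf8 was counted at 79.6 CPM in WT, 85.5 in KO, 122.0 in Young and 151.1 in Aged. Bhlhe40 was counted at 537.1 CPM in WT, 603.5 in KO, 723.8 in Young and 651.1 in Aged. The last was the 1 factor of the 10 that stood lower in Aged than in Young.

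The first pair of libraries asks which factors differ when Bfar is deleted in CD8+ T cells. None of the 10 differed by 1.5 times or more in either direction, where 0.607% of 7415 measured genes stood at least 1.5 times higher in KO and 3.09% at least 1.5 times lower. Measured genes are those with 20 UMIs or more in the pair and 10 CPM in 1 library of it. Zeb2 was the highest, at 1.25 times WT (1.20 to 1.31), followed by Irf4 at 1.23 times (1.17 to 1.30) and Bhlhe40 at 1.12 times (1.11 to 1.14). These 3 lay above 97.3%, 96.8% and 91.7% of the measured genes. Eomes was the lowest, at 0.895 times WT (0.847 to 0.944), with Id2 next at 0.898 times (0.886 to 0.910). Tbx21 (0.957 times), Zbtb32 (0.947), Batf (0.989) and Runx3 (0.990) had intervals that held 1, and Irf8 stood at 1.07 times (1.04 to 1.11). The median log2 ratio of the 10 was -0.02, against -0.05 over all measured genes.

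The Irf4 ratio moved with the depth of the cell. In cells of 1000 to 4999 UMIs the Irf4 level was 54.3 CPM for WT and 41.1 CPM for KO, which gave 0.758 (0.652 to 0.879). In cells of 5000 to 9999 UMIs the ratio was 1.07 (0.984 to 1.15). In cells of 10000 UMIs or more it was 21.4 CPM for WT and 38.7 CPM for KO, which gave 1.81 (1.65 to 1.99). The direction of Irf4 was thus opposite in shallow and deep cells, and with every cell thinned to 2000 UMIs its log2 ratio was -0.02. Markers of other cell types moved with it: in WT, Irf4 stood at 13.8 CPM in the 862 cells with such markers and 37.6 CPM in the rest, and in KO at 31.6 and 41.0 CPM. Without these cells the Irf4 ratio was 1.09, as it was without the 8% of cells with the most UMIs, and without cells with Mki67 or Top2a it was 1.08. The part of each in the result was not tested. Zeb2 was higher in KO in each of these depth ranges, at 1.08 (0.914 to 1.27), 1.26 and 1.30 times WT, although the interval of the first held 1. Batf, like Irf4, went from lower to higher in KO, at 0.765 (0.685 to 0.853), 0.927 and 1.14 times (1.07 to 1.20). Eomes went from higher to lower, at 1.16 (1.01 to 1.33), 0.852 and 0.874 times. Tbx21, Runx3 and Irf8 crossed 1 as well, with ratios of 0.962, 0.863 and 1.10 for Tbx21.

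The transfer pair asks which factors differ with the age of the donor once the cells have met the same kind of tumour in young hosts. Of the 10, 9 stood higher in Aged, as did 67.3% of 7938 measured genes. At least 1.5 times higher stood 4 of the 10, where 2.62% of the measured genes stood that much higher and 3.83% that much lower. None of the 10 was 1.5 times lower. Zbtb32 had the largest ratio, 5.27 times Young (4.80 to 5.80). At 8.54 CPM in Young it was among the measured genes only through its level in Aged, so its place among them is partly set by that filter. Batf followed at 1.81 times (1.74 to 1.89), Eomes at 1.78 times (1.69 to 1.87) and Zeb2 at 1.56 times (1.46 to 1.67). Id2 at 1.36 times (1.33 to 1.38), Tbx21 at 1.35 times (1.30 to 1.40) and Runx3 at 1.30 times (1.26 to 1.34) stood higher by less. Irf4 at 1.04 times (0.984 to 1.10) did not differ beyond counting error, and Bhlhe40 stood at 0.899 times (0.888 to 0.912). The median log2 ratio of the 10 was 0.44, against 0.08 over all measured genes.

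**Figure D2:**
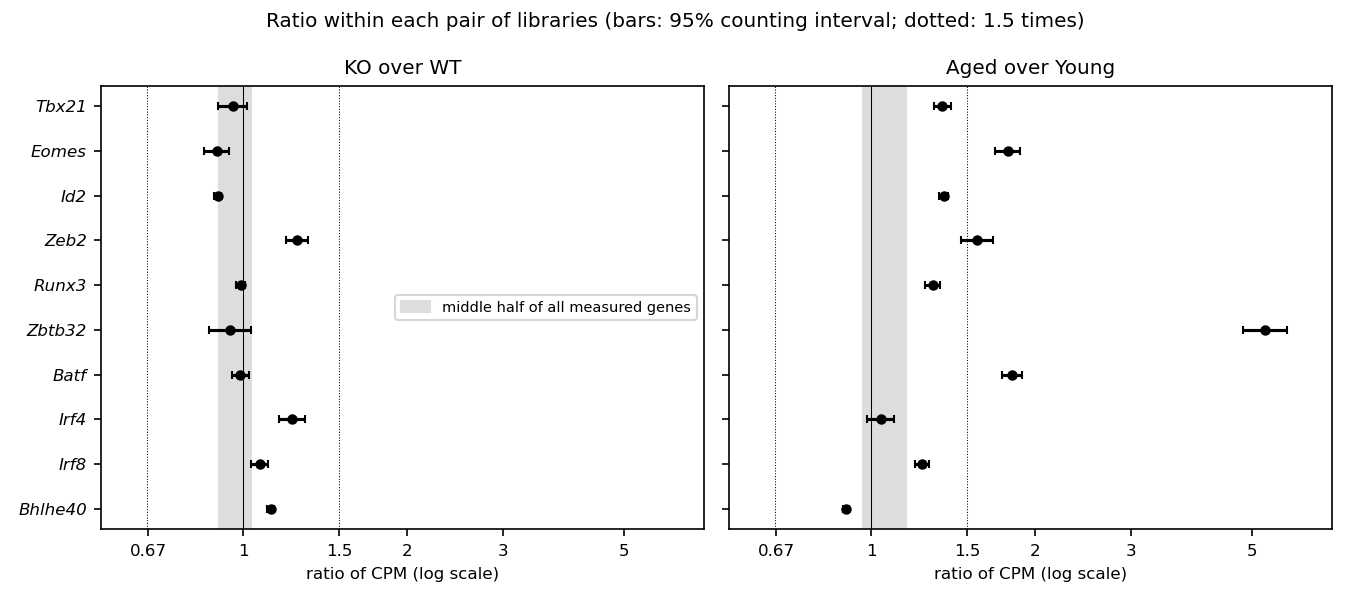
Ratio of each factor's CPM within a pair (horizontal log axis, KO over WT on the left, Aged over Young on the right); points are single pairs of libraries, whiskers 95% counting intervals, dotted lines 1.5 times up and down, and the grey band holds the middle of all measured genes between the quartiles. No point lies past a dotted line on the left, and Zbtb32, Batf, Eomes and Zeb2 lie past it on the right.

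Zbtb32 stood higher in Aged on both sides of each gate that was looked at. In cells without a UMI of Havcr2 its Young level was 6.42 CPM and its Aged level 18.7 CPM, a ratio of 2.92 (2.53 to 3.38), and in cells with one these were 13.5 and 71.1 CPM, a ratio of 5.28 (4.63 to 6.04). Cells with a UMI of Trbv12-1, a segment of the T cell receptor beta chain, numbered 2301 of the 8252 Aged and 1630 of the 9803 Young cells. Without them Zbtb32 was still 4.52 times higher in Aged (4.06 to 5.04), and over 13 alternative ways of choosing and weighting cells its ratio lay between 4.03 and 5.28. Over the same 13, Eomes lay between 1.60 and 1.79 times and Batf between 1.67 and 1.83 times. Zeb2 lay between 1.34 and 1.61 times, with the lowest value in cells without Trbv12-1, which is under 1.5 times.

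The direction of Irf8 between Aged and Young depended on which cells were counted, and its ratio kept its direction in 9 of 13 alternatives. The same was so for Irf4, whose ratio over these alternatives stayed close to 1, between 0.965 and 1.08. Split by depth, Irf4 stood at 1.02 times Young in cells of 1000 to 4999 UMIs and 0.982 times in cells of 5000 to 9999 UMIs. In cells of 10000 UMIs or more it stood at 1.36 times, with an interval that began at 1.22. Over all cells Irf8 stood at 1.24 times Young (1.20 to 1.28). In Young, 55.2% of its UMIs lay in the 861 cells with markers of other cell types, at 347.5 CPM against 67.8 CPM in the other cells. In Aged these were 21.4% of its UMIs, in 430 cells. Dendritic cells use Irf8 themselves: the 70 Young barcodes gated as dendritic held 806 CPM of it and the 48 such Aged barcodes 1295 CPM. Without all barcodes that carried other cell type markers, the Irf8 level was 67.8 CPM for Young and 131.4 CPM for Aged, or 1.94 times.

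In Aged, on the other hand, Irf8 was gathered in cells with Trbv12-1. The 230 Aged cells with UMIs of both Trbv12-1 and Gzmd, Gzme or Gzmf held 33.3% of all Irf8 UMIs, at 696 CPM. A further 2071 Aged cells with Trbv12-1 alone stood at 185 CPM, and the 5841 cells with neither at 72.4 CPM, below the 111 CPM of the 8081 such Young cells. Without Trbv12-1 cells the Young level was 116.4 CPM and the Aged level 73.9 CPM, a ratio of 0.635, so that it was then the 1 factor at least 1.5 times lower in Aged. With both kinds of cell left out, the Young level was 63.0 CPM and the Aged level 60.3 CPM. The part of dendritic cells and of Trbv12-1 cells in the Irf8 result beyond these values was not tested.

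**Figure D3:**
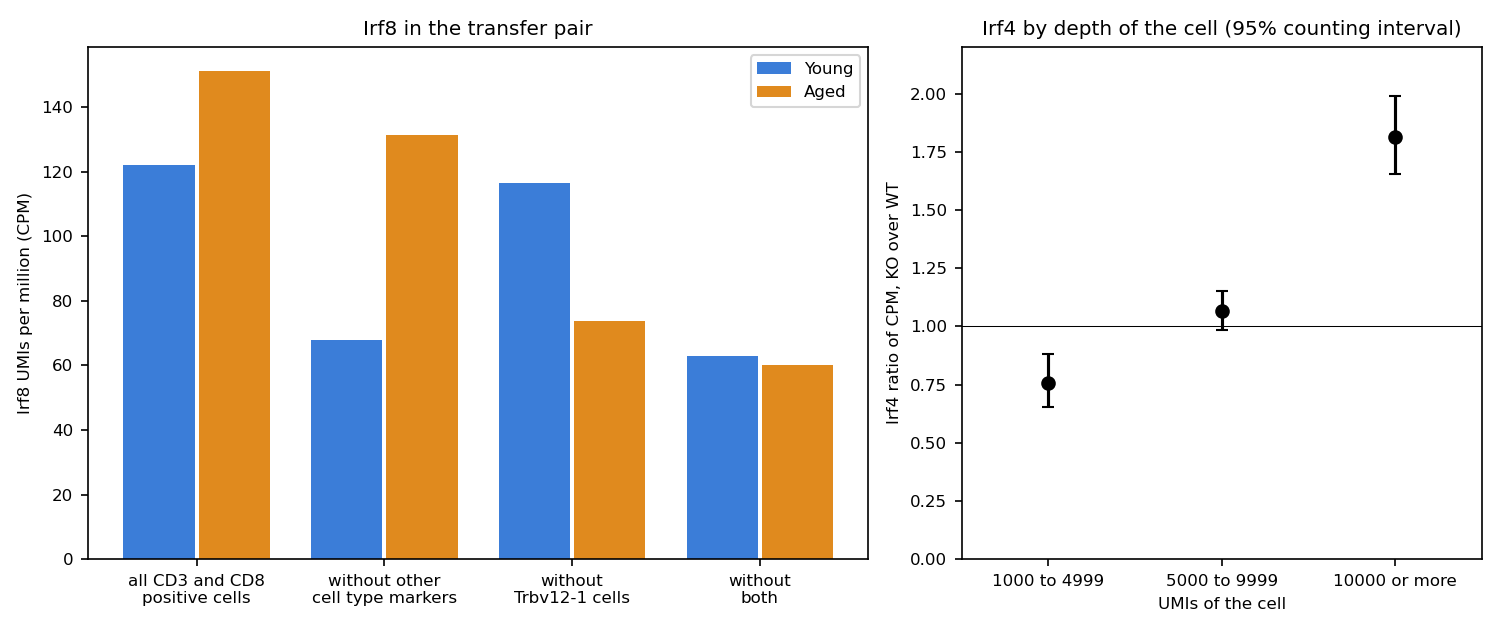
Left: Irf8 level (CPM, bars from 0) in Young and Aged cells, for all cells and with cells left out as named below each pair of bars. Right: Irf4 ratio of KO over WT (linear axis) in cells of 3 depth ranges, with 95% counting intervals. Irf8 is higher in Aged over all cells and without other cell type markers, and lower in both pairs of bars without Trbv12-1 cells, and the Irf4 ratio is 0.758, 1.07 and 1.81.

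Genes known to work beside these factors were followed in 3 lists, whose median log2 ratios (with 1 CPM added) are set against -0.05 over all measured genes in KO and 0.08 in Aged. Of 32 other factors of CD8 differentiation 30 were measured in KO and WT, where none stood 1.5 times higher and 2 lower, Klf2 (0.617 times, a factor of quiescence and egress) and Maf. The highest was Rora at 1.49 times, and the median was 0.09. In the transfer pair 4 stood higher in Aged and 4 lower. Maf at 3.38 times was the highest and Id3, the counterpart of Id2 in memory cells, at 0.467 times the lowest, with Prdm1, Myb and Tox higher, Nr4a1, Bcl6 and Tcf7 lower, and a median of 0.03.

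Of 16 partners of the factors, such as Jun family members, Cbfb and E-proteins, 13 were measured in each pair, none 1.5 times higher in either and 2 lower in each. In KO these were Fos at 0.510 times WT and Jun. In Aged they were Spi1, a myeloid factor, at 0.258 times Young, and Bach1. The highest partners were Irf2 at 1.13 times in KO and Jund at 1.18 times in Aged, and the medians were -0.05 and -0.11. Spi1 moved in the same direction as the dendritic cell markers, and their part in it was not tested.

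Genes known as targets of the T-box factors or Runx3 were all within 1.5 times between KO and WT, for 14 measured of 17, with Il12rb2 the highest at 1.45 times and Gzma the lowest at 0.879 times, and a median of 0.08. Between Aged and Young, 15 were measured, 4 stood higher and 2 lower. Ccl3, a chemokine of activated T cells, stood at 2.94 times, with Prf1, Klrg1 and Ccl4 also past 1.5 times. Itgae, an integrin of tissue-resident cells that Runx3 is known to induce, stood at 0.198 times and Gzma at 0.530 times, and the median was 0.13.

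Gates on a single gene then split each library into cells with and without a UMI of it. Gzmb (granzyme B) marks cytotoxic cells, Gzmk (granzyme K) early effector memory-like cells, Havcr2 (TIM-3) terminally dysfunctional cells and Cx3cr1 a subset of effectors. A factor was counted for a gate when it differed by 1.5 times in the same direction in all 4 libraries. For the background, 6603 genes with at least 20 UMIs and 10 CPM in every library were used, a set that leaves out Zbtb32 since it stood at 8.54 CPM in Young. A gate by 1 UMI also selects deeper cells: in WT, Havcr2-positive cells had a median of 7854 UMIs and Havcr2-negative cells 5976.

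Gzmb divided the factors least. None was 1.5 times higher or lower in all 4 libraries, where 0.348% of genes were higher and 0.242% lower. Tbx21 differed little between Gzmb-positive and Gzmb-negative cells, at 1.11 in WT, 1.22 in KO, 0.964 in Young and 1.07 in Aged. Zbtb32 was higher in Gzmb-positive cells in all 4, at 1.29, 1.56, 1.44 and 2.57 times. Bhlhe40 was lower in them in all 4, at 0.717, 0.815, 0.771 and 0.756 times. In Aged it stood at 628.4 CPM in the 6991 Gzmb-positive and 831.5 CPM in the 1261 Gzmb-negative cells.

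Gzmk was tied to Eomes. In WT, Eomes stood at 62.2 CPM in Gzmk-positive and 21.4 CPM in Gzmk-negative cells, a ratio of 2.91 (2.69 to 3.15). In KO it stood at 69.3 and 15.6 CPM, a ratio of 4.44 (4.07 to 4.86). In Young the levels were 43.2 and 25.1 CPM (1.72 times, 1.56 to 1.89), and in Aged 71.8 and 35.4 CPM (2.03 times, 1.85 to 2.23). Eomes was the 1 factor past 1.5 times in all 4, against 0.227% of genes higher and 0.273% lower, and it remained so under each of the 7 other ways of setting the gate and the cells at that fold. Its T-box relative Tbx21 stood slightly lower in Gzmk-positive cells in all 4, between 0.855 and 0.932 times. With gate and cells thinned to equal depth, the share of cells with Tbx21 was compared between the sides. The positive share was 0.927 times the negative share in WT, 0.828 in KO, 0.971 in Young and 0.969 in Aged. The intervals of the sides overlapped in all 4, so a direction opposite to Eomes was not shown beyond counting error. By CPM, Irf4 was also lower in Gzmk-positive cells, at 0.691 times in WT, 0.843 in KO, 0.813 in Young and 0.571 in Aged. Thinned in the same way, its positive share was 0.908, 0.849, 0.838 and 0.664 times the negative share. The intervals of the sides overlapped in WT, KO and Young and lay apart only in Aged. Bhlhe40 was by CPM lower in Gzmk-positive cells as well, between 0.697 and 0.758 times.

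Between KO and WT, Eomes differed by side of the Gzmk gate. In Gzmk-negative cells it stood at 0.731 times WT and in Gzmk-positive cells at 1.11 times, and the share of Gzmk-positive cells was 33.8% in KO and 39.6% in WT. A difference between these ratios was not tested.

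Havcr2 separated 3 factors, Zeb2, Zbtb32 and Irf8, where 1.29% of genes were higher in all 4 libraries and 0.682% lower. Irf8 stood at 130.8 CPM in Havcr2-positive and 53.9 CPM in Havcr2-negative WT cells, a ratio of 2.43. The ratio was 3.13 in KO, 5.80 in Young and 5.98 in Aged. Dendritic cells also carry Havcr2. Without barcodes that held other cell type markers the Young ratio was 3.93 and the Aged ratio 5.42, still past 1.5 times in all 4 libraries.

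Zbtb32 stood at 27.4 CPM in Havcr2-positive and 7.40 CPM in Havcr2-negative WT cells. Its ratio was 3.71 in WT, 3.98 in KO, 2.10 in Young and 3.80 in Aged. Zeb2 showed smaller ratios of 1.86, 1.99, 1.54 and 2.11. With gates and levels both thinned to 2000 UMIs per cell, Zeb2 was no longer past 1.5 times in all 4, at 1.48 in WT and 1.12 in Young, and without Gzmd, Gzme or Gzmf cells it was 1.47 in Young. Thinned, Zbtb32 (2.17 to 3.66) and Irf8 (1.87 to 3.54) were past it in all 4. Id2 was higher in Havcr2-positive cells in all 4, at 1.70, 1.61, 1.41 and 1.37 times, whereas Bhlhe40 lay between 0.980 and 1.03 times. Thinned to 2000 UMIs, however, Bhlhe40 was found more often in Havcr2-positive cells in all 4. The intervals lay apart in KO (64.9% against 58.8%), Young (70.6% against 65.6%) and Aged (67.0% against 62.8%), and overlapped in WT.

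Cx3cr1 separated Zeb2 and Irf8, where 0.606% of genes were higher in all 4 libraries and 0.0757% lower. Zeb2 stood at 83.5 CPM in the 1256 Cx3cr1-positive and 33.2 CPM in the 7710 Cx3cr1-negative WT cells, 2.51 times (2.34 to 2.70). In the other libraries Zeb2 was 2.07 times higher in KO, 1.97 in Young and 1.77 in Aged. Irf8 was 2.79, 2.65, 1.84 and 1.91 times higher. Thinned to 2000 UMIs the Irf8 ratio was 1.12 in Young and 1.13 in Aged, and without Trbv12-1 cells it was 1.20 in Aged, so that Zeb2 was then the 1 factor past 1.5 times in all 4. Without the 8% of cells with the most UMIs, Zeb2 was 1.49 times higher in Aged. Zbtb32 stood at 3.13, 2.64, 1.48 and 1.72 times, just under 1.5 in Young, and when thinned at 0.968 times in Aged. Irf4 was lower in Cx3cr1-positive cells in all 4, at 0.649 times in WT and 0.939 times in Aged at the extremes. With gate and cells thinned to 2000 UMIs, the share of cells with Irf4 was lower on the positive side in WT (6.05% against 6.73%) and KO (3.13% against 6.96%). It was higher there in Young (8.71% against 7.1%) and Aged (8.33% against 7.20%).

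**Figure D4:**
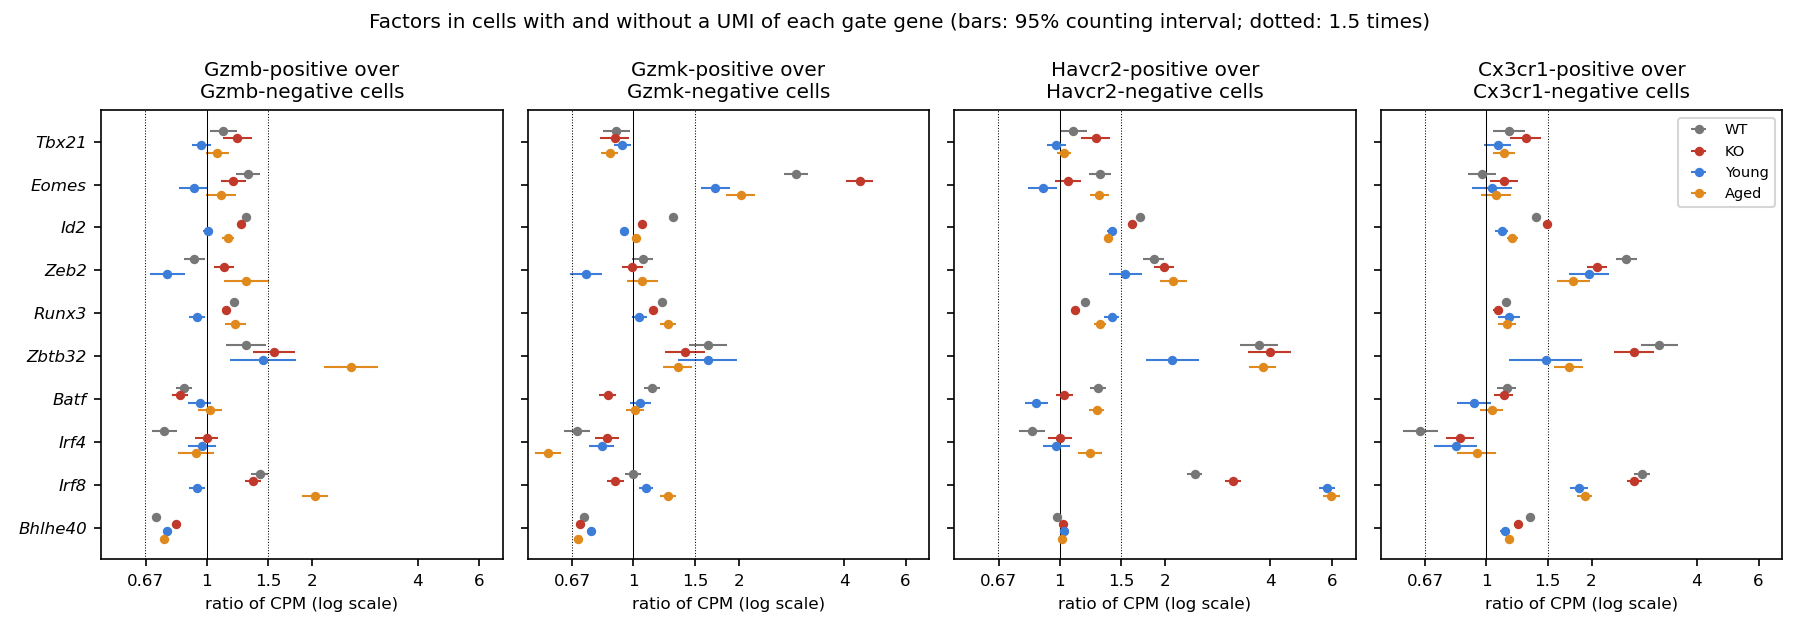
Ratio of each factor's CPM in gate-positive over gate-negative cells (horizontal log axis), 1 panel per gate gene and 1 point per library, with 95% counting intervals and dotted lines at 1.5 times up and down. Eomes stands to the right in the Gzmk panel (1.72 to 4.44), Zbtb32 and Irf8 in the Havcr2 panel, and Zeb2 and Irf8 in the Cx3cr1 panel.

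Zbtb32 and Irf8 also moved together in the gates on Tcf7 and on Gzmd, Gzme or Gzmf, though not in every gate. With the Gzmk gate and cells thinned to equal depth, the positive share of Zbtb32 was 1.43 times the negative share in WT and 1.27 in Young. For Irf8 these were 0.840 and 0.621 times. The intervals of the sides overlapped for Zbtb32 in WT and Young. In KO and Aged the positive share was the lower for both factors. In cells with a UMI of Tcf7, the factor of stem-like and memory cells, both were lower in all 4 libraries, Zbtb32 at 0.303 to 0.555 times and Irf8 at 0.294 to 0.587 times, where 0.575% of genes were at least 1.5 times lower and 0.257% higher in all 4. In cells with Gzmd, Gzme or Gzmf, granzymes of late-stage killers, both were higher in all 4, at 2.23 to 3.85 times for Zbtb32 and 3.31 to 5.84 times for Irf8, against 1.26% of genes higher and 2.54% lower. These cells were few, between 122 in Young and 340 in Aged. In Aged the Irf8 level among them was 696 CPM in the 230 cells that also had Trbv12-1 and 120 CPM in the 110 that did not, against 185 CPM in cells with Trbv12-1 alone and 72.4 CPM in cells with neither. No factor passed 1.5 times in all 4 in cycling cells with Mki67 or Top2a, where 4.83% of genes were higher and 0.136% lower, nor in Trbv12-1 cells, where 0% were higher and 0.0606% lower.

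Shares of cells were compared after each cell was thinned to 2000 UMIs, which left out 80 WT, 45 KO, 611 Young and 201 Aged cells with fewer. A UMI of Tbx21 was found in 5.99% of WT, 5.14% of KO, 14.9% of Young and 19.4% of Aged cells, against 18.0%, 17%, 31.7% and 46.2% without thinning. Zbtb32 was found in 2.00%, 1.80%, 1.16% and 5.22% (unthinned 6.92%, 7.1%, 3.73% and 15.3%), so that the Aged share was again above the Young share. Eomes was found in 6.80%, 6.18%, 6.26% and 10.1%, and Zeb2 in 6.48%, 8.25%, 3.81% and 5.73%. Id2 (57.6%, 52.7%, 42.2% and 51.0%), Bhlhe40 (56.2%, 59.4%, 65.9% and 63.5%) and Runx3 (42.5%, 40.7%, 17.9% and 23.1%) were found in many cells. Batf was found in 10.5% to 16.4%, Irf8 in 7.69% to 9.50% and Irf4 in 6.66% to 7.23%, the latter with no order within a pair beyond counting error.

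Tumour or epithelial barcodes, which should lack T cell factors, served as background. Their median depth of 23573 to 38988.5 UMIs was far above that of the T cells before thinning. Eomes, Zbtb32 and Irf4 were found in 0 of 105 thinned WT barcodes (upper bound 3.45%), 0 of 17 in KO, 0 of 108 in Young and 0 of 104 in Aged, and Tbx21 in 3 of 108 in Young and in none of the others. Bhlhe40 was found in 50.5% of the WT barcodes and Zeb2 in 5.71% to 11.8% over the libraries. Non-T cells carry Bhlhe40 and Zeb2 too, so for these 2 factors a share in T cells is not above that background.

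The UMIs of Irf8 and Zbtb32 were concentrated in few cells, with cells that carried other cell type markers kept in the count. The 1% of cells with the most UMIs of the gene held 31.9% to 36.2% of the Irf8 UMIs and 30.7% to 48.6% of the Zbtb32 UMIs, depending on the library. For Runx3, found in many more cells, the same share was 6.89% to 12.7%. Among factors found in fewer cells it was 19.4% to 26.9% for Zeb2, 14.8% to 21.2% for Eomes, 18.2% to 19.6% for Irf4 and 8.68% to 15.3% for Tbx21. A gene with few UMIs reaches a high share through its sparseness alone, and that part was not set apart. A single Young cell held 95 UMIs of Irf8, and a single Aged cell 31 UMIs of Zbtb32.

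Co-detection of the 45 pairs of factors was set against the number of cells expected if their UMIs fell independently, at 2000 UMIs per cell. The observed number was above the expected in all 4 libraries for 26 pairs, with a median of 1.10 over pairs and libraries, and below it in all 4 for 1 pair (Irf4 and Runx3, 0.936 to 0.989). For 3 pairs it was at least 1.5 times the expected number in all 4. No background over pairs of other genes is given, so whether these counts are particular to the factors was not tested. Zbtb32 and Irf8 were found together in 41 WT, 37 KO, 22 Young and 106 Aged cells where 14.3, 12.0, 8.23 and 39.9 were expected, or 2.87, 3.09, 2.67 and 2.66 times. Zeb2 and Zbtb32 were found together at 2.43, 2.99, 1.72 and 1.79 times the expected number, and Zeb2 and Irf8 1.89, 1.68, 1.63 and 1.80 times.

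The draw of the thinned UMIs moved the small counts: with another random seed Zbtb32 and Irf8 stood at 2.77, 3.02, 1.45 and 2.91 times, so that Young then fell short of 1.5 times. Counts behind the Young value of Zeb2 with Zbtb32 were small, 7 cells where 4.07 were expected (0.691 to 3.54 times). Without Gzmd, Gzme or Gzmf cells it was 4 cells, 1.06 times. The excess of Zbtb32 with Irf8 was 2.88 to 3.21 times without barcodes of other cell types, 2.73 to 3.03 times without Trbv12-1 cells and 2.56 to 3.08 times without Gzmd, Gzme or Gzmf cells.

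**Figure D5:**
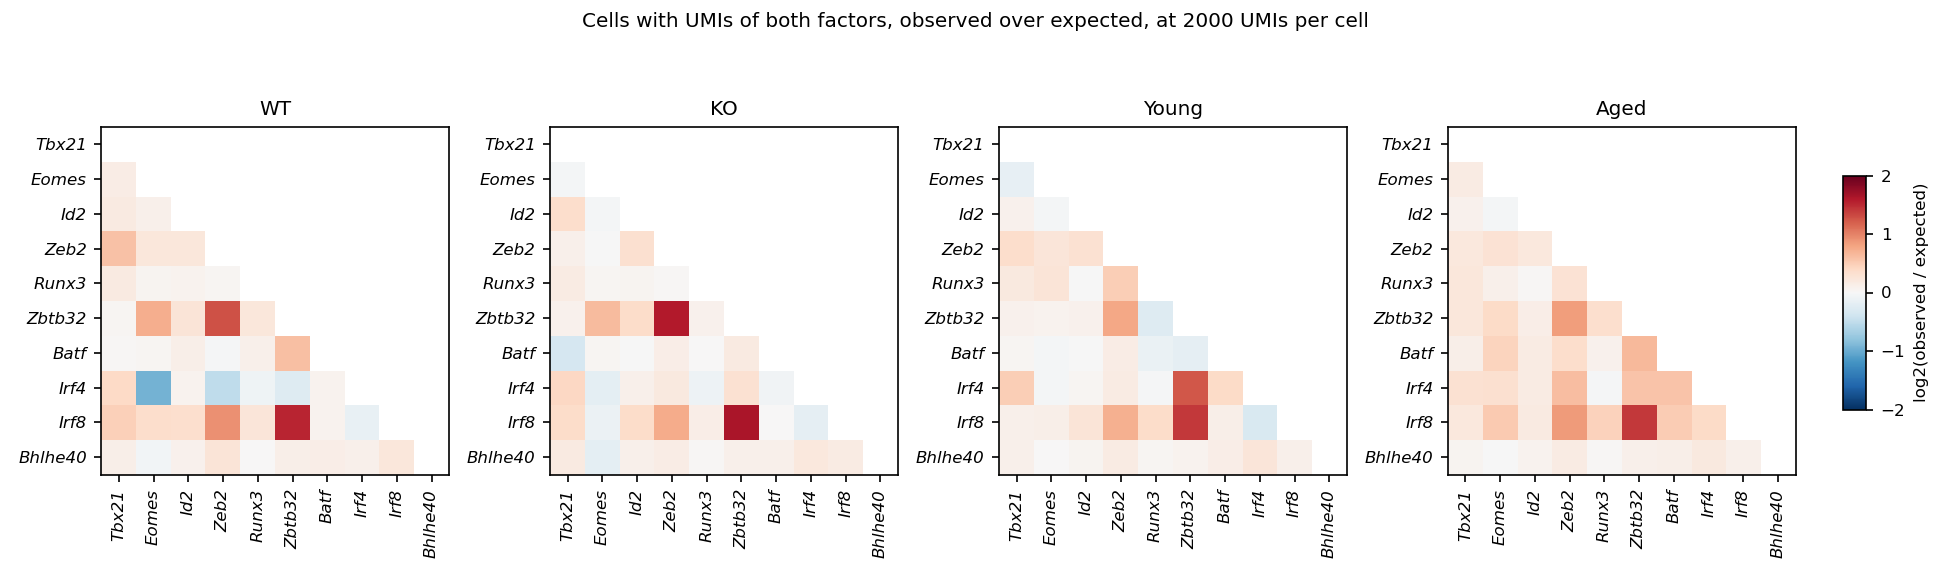
Cells with UMIs of both factors of a pair, observed over expected, as log2 colour in 1 panel per library (red above, blue below expectation; genes on both axes), at 2000 UMIs per cell. The reddest cells in each panel join Zbtb32 with Irf8, at 2.66 to 3.09 times the expected number.

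No such excess was seen between the T-box factors. Tbx21 and Eomes were found together at 1.11, 0.970, 0.897 and 1.12 times the expected number. Tbx21 and Irf4 exceeded expectation in all 4 libraries, at 1.32, 1.33, 1.41 and 1.24 times, with intervals that held 1 in WT and KO. Eomes and Irf4 stood at 0.519 (0.322 to 0.793) in WT and 1.25 (0.977 to 1.56) in Aged. At least 3 of the 10 factors were detected in 34.2% of WT, 32.7% of KO, 23.7% of Young and 34.6% of Aged cells, and none of them in 8.45%, 9.19%, 11.5% and 8.61%.

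Cells were also sorted into the 16 classes made by the 4 gates, keeping classes of at least 50 cells (15 in WT, 16 in KO, 13 in Young and 11 in Aged). Eomes peaked in cells with Gzmk but without Gzmb and Havcr2 in all 4 libraries, at 86.7 CPM in WT, 118.0 in KO, 68.6 in Young and 97.1 in Aged. In KO these cells also carried Cx3cr1, and numbered 88. Irf8 peaked in Havcr2-positive classes in all 4, at 279.8, 296.6, 391.6 and 332.1 CPM. It was 9.84 to 14.6 times higher there than in its lowest class. Cells with other cell type markers were kept in the classes. In Young, the 432 cells with dendritic cell markers held 49.2% of all Irf8 UMIs, and their part in the Irf8 peak was not tested. Runx3 varied between its highest and lowest class by 1.33 times in KO to 1.67 times in Young.

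Across these classes some factors followed each other, described here by Pearson's r of log2(CPM + 1), averaged over the libraries, with 11 to 16 classes that share their cells and depth. Id2 followed Irf8 (0.871), and Irf8 followed Zeb2 (0.797) and Zbtb32 (0.780). Eomes ran against Bhlhe40 (-0.607) and Irf4 (-0.510). Among 4616 genes of at least 20 CPM in every library, Eomes was most like Sh2d1a, the adaptor SAP (0.887), then Igkc and Cd27. Igkc is an immunoglobulin gene that T cells do not make. Irf8 was most like Ubash3b (0.891), then Tnfrsf9, the costimulator 4-1BB, and Gpd2. Zbtb32 was most like Cox17 (0.849), Nabp1 and Tnfrsf9, and Zeb2 like Mdfic (0.882), Stat3 and Itgav.

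Bhlhe40 was most like Nfkb2 (0.877), Cd44 and Nfkb1, and Id2 like Adam8 (0.872), Irf8 and Cmip. Runx3 followed Actr3 (0.842), Psmb9 and Psma4. The remaining factors had weaker likenesses: Batf with D16Ertd472e (0.714), Rtn3 and Camk4, Irf4 with Rnf149 (0.663), Sytl3 and Tesc, and Tbx21 with B4galt5 (0.641), Sytl3 and Klrc1. For Tbx21 and B4galt5 the correlation was 0.911 in WT and 0.267 in Young.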

How the data were processed

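Single-cell RNA was measured in 4 libraries, grouped by the titles in the labels. The deposited matrices hold whole-number counts of UMIs per gene and barcode, which the authors made with Cell Ranger per the file headers. Cell Ranger 6.0.0 and Seurat 3.2.3, with build mm10, stand in the submitters' processing notes. The headers name other Cell Ranger releases, so the release is not settled here. No source states the setting for intronic reads or how cells were called. As labelled, WT and KO used a 3' kit and Young and Aged an immune profiling kit.

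UMIs were summed over CD3 and CD8 positive cells and scaled to 1000000 (CPM). Levels carry exact Poisson intervals, ratios exact conditional binomial intervals and shares exact (Clopper-Pearson) intervals, all covering counting error only, computed with Python 3.11.15, numpy 2.4.6 and scipy 1.17.1. Library totals ranged from 68017515 (Young) to 85401443 UMIs (WT). No significance test was made, because each group had 1 library. The threshold was 1.5 times. No doublet caller was run, so doublets may remain. A pair of alternatives left out the 8% of cells with the most UMIs and the barcodes with at least 2 UMIs of other cell type markers. The members, gene lists, gates and rules were chosen with earlier results of these data known. Named were all 10 factors, the highest and lowest measured gene of each list with those past 1.5 times, and the 3 genes most like each factor. The interval code was tested on simulated data.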

Additional observations from a re-analysis of the deposited data

Results flagged for a closer look

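Several factors moved in opposite directions on the sides of a comparison, and none of these differences was tested, since each group had 1 library. Between Gzmb-positive and Gzmb-negative cells, Zeb2 stood at 1.12 times in KO but 0.921 times in WT, and at 1.29 times in Aged but 0.771 times in Young. At 2000 UMIs per cell the share of cells with Zeb2 was 1.05 times higher on the positive side in KO and 1.02 times in WT, so the first of these opposite directions was not there at equal depth. In the same gate Irf8 stood at 2.03 times in Aged and 0.938 times in Young, and Runx3 at 1.21 and 0.939 times. Between Gzmk-positive and Gzmk-negative cells Batf stood at 0.845 times in KO and 1.13 times in WT. Between Havcr2-positive and Havcr2-negative cells Eomes stood at 1.3 times in Aged and 0.894 times in Young, and Batf at 1.28 and 0.857 times. At 2000 UMIs per cell Batf was found in more Havcr2-positive than Havcr2-negative cells in both, 21.3% against 15.4% in Aged and 11.8% against 10.4% in Young, so its opposite direction was not there at equal depth.

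Within a pair, Irf8 was higher in Aged than in Young among Gzmb-positive cells (1.34 times) and lower among Gzmb-negative cells (0.617 times). Eomes was higher in KO than in WT among Gzmk-positive cells (1.11 times) and lower among Gzmk-negative cells (0.731 times). Batf went the other way, at 0.825 times in Gzmk-positive and 1.11 times in Gzmk-negative cells, and at 0.86 times in Havcr2-positive and 1.07 times in Havcr2-negative cells. Runx3 stood at 0.968 times in Gzmk-positive and 1.03 times in Gzmk-negative cells, and Irf8 at 1.17 times in Havcr2-positive and 0.907 times in Havcr2-negative cells.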

How the results depend on the processing

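The number of factors at least 1.5 times higher or lower between KO and WT was 0 under each alternative run. The median log2 ratio of the members, KO over WT, was -0.02. It was -0.0910 without barcodes of other cell types, -0.11 without the 8% of cells with the most UMIs, -0.11 without other cell types and Trbv12-1 cells together (added after seeing the data), -0.0646 as a mean of per-cell CPM and -0.12 with cells thinned. The median log2 ratio of the members, Aged over Young, was 0.44, and became 0.58, 0.59, 0.48 and 0.49 without other cell types, without the 8%, per cell and thinned, and 0.35 scaled to the median of all genes. Without Trbv12-1 cells 1 factor was 1.5 times lower in Aged (Irf8), and at a fold of 2 there was 1 higher (Zbtb32). At that fold 0 factors passed for Gzmk and 0 for Cx3cr1. For Cx3cr1 1 passed when thinned and 1 without Trbv12-1 cells. Of the log2 ratios whose interval left out 0, those that turned were Irf4 in KO (-0.0187 thinned) and Irf8 in KO (-0.0257 with equal gate classes). Irf8 in Aged turned without Trbv12-1 cells (-0.66), without Gzmd, Gzme or Gzmf cells (-0.0688), without other cell types and Trbv12-1 cells (-0.0639) and with equal classes (-0.0890). Ratios whose interval held 0 also changed sign under some alternatives (Zbtb32, Batf and Runx3 in KO, Irf4 in Aged). Of the pairs whose interval left out 1, co-detection crossed 1 at 1000 UMIs for Eomes with Zbtb32 (0.567) and Eomes with Irf4 (1.01) in WT and for Zbtb32 with Irf4 in Young (0), and with another seed for Zeb2 with Runx3 in Aged (0.995). The cause was not tested for any of these. Without the filter on low counts, 11% of all genes were 1.5 times higher in KO and 24.4% lower, and 12.9% and 26.4% in Aged. No paired analysis was possible because the labels give no replicate numbers that groups share beyond 1 library each. Depth limits the factors found in few cells, such as Zbtb32 with 519 UMIs in Young.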
